A study of Mus musculus with 12 samples.

Results

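The genes described here handle cellular iron: Tfrc, Slc11a2 and Steap3 for uptake, Fth1, Ftl1 and Ncoa4 for storage, Slc40a1 for export, and Ireb2, Aco1 and Fbxl5 for regulation. They were chosen by symbol, and all 10 were found among the 55450 genes of the expression tables. The study sequenced mRNA of CD4 T cells from Pkm2 knockout (KO) and wild type (WT) mice, with 3 libraries in each of 4 groups; Pkm2 is a form of the glycolytic enzyme pyruvate kinase. The KO stimulated and WT stimulated groups were cultured for 24 h on plates coated with 1 ug/mL anti-CD3 and 2 ug/mL anti-CD28, antibodies that activate the antigen receptor and its costimulator. The KO resting and WT resting groups had no antibody, and all 4 groups received the survival cytokine human IL7 at 25 ng/mL. Glutamine and mercaptoethanol were also given to all 4 groups, at the same doses. The labels call the source both spleen with lymph nodes and splenocytes, give the culture time both as 24 h and as overnight, and place a positive selection for CD4 before RNA extraction. The allele, the Cre driver if any, the age and the number of animals were not given in the sources used here. The replicates are not said to come from separate animals or cultures, so the p-values reflect spread among libraries that may be technical.

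Iron bound to transferrin enters a cell through the transferrin receptor, is reduced in the endosome and crosses into the cytosol, where it is used, stored in ferritin or exported through ferroportin. The iron regulatory proteins IRP1 (encoded by Aco1) and IRP2 (encoded by Ireb2) bind a hairpin, the iron-responsive element, when iron is short. Binding in the 3′ UTR protects Tfrc mRNA from decay, whereas binding in the 5′ UTR blocks translation of ferritin and ferroportin mRNA, which mRNA counts do not measure. T cells raise the transferrin receptor when they are activated. Macrophages of the splenic red pulp take up old red cells and are rich in ferroportin, ferritin and haem oxygenase.

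Hairpins of the kind that these proteins bind are shown because several of the genes below carry a match. Binding was not measured here. A search for the loop CAGTGN, closed by a stem of 5 base pairs (G-T pairs allowed) with a C just 5′ of the stem, was made on the sense strand of annotated UTRs of the GENCODE M21 transcripts (mm10). The search did not check whether that C is unpaired. The search found 4 such hairpins in the 3′ UTR of Tfrc and 1 each in the 5′ UTRs of Fth1, Ftl1 and Slc40a1. One in the 3′ UTR of Slc11a2 lacked 1 stem pair. Each line gives 30 bases, 5′ to 3′, as DNA letters, with the loop in capitals.
Tfrc, chr16:32631218-32631247, plus strand: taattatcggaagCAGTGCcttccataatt
Tfrc, chr16:32631597-32631626, plus strand: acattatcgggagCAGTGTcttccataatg
Tfrc, chr16:32631662-32631691, plus strand: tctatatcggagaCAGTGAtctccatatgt
Tfrc, chr16:32631709-32631738, plus strand: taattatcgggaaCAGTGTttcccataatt
Fth1, chr19:9982731-9982760, plus strand: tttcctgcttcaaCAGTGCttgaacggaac
Ftl1, chr7:45459779-45459808, minus strand: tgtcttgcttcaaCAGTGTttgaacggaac
Slc40a1, chr1:45925465-45925494, minus strand: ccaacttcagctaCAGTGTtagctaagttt
Slc11a2, chr15:100395153-100395182, minus strand: gagccatcagagcCAGTGTgtttctatggt
Hairpins with all 5 pairs were present in the annotated 5′ UTRs of 31 of 20916 genes (0.148%) and in the 3′ UTRs of 129 of 21042 genes (0.613%). With 1 pair missing allowed, the shares were 0.985% and 4.14%. Ireb2, Aco1, Ncoa4, Steap3 and Fbxl5 had no match to this pattern, which says only that these letters are not in their annotated UTRs.

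Library totals ran from 63266477 to 76891786 counts. Levels are in CPM, which divides counts by the library size as adjusted by the TMM method. Pkm, the gene of the knockout, was at 1052 ± 14.6 CPM in KO stimulated and 2485 ± 35.5 CPM in WT stimulated libraries, and at 185 ± 11.7 CPM in KO resting and 454 ± 47.4 CPM in WT resting libraries (SD, n = 3 each). Summed markers of CD4 T cells (10 genes, Cd4, Cd3e and Trac among them) were at 2531 to 2628 CPM in stimulated and 3385 to 4209 CPM in resting libraries.

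All libraries carried RNA of other cells, the resting ones most, and WT resting replicate 1 stood apart. Summed myeloid markers (16 genes) were at 246 to 249 CPM in KO stimulated and 180 to 224 CPM in WT stimulated libraries, all far below the resting libraries. In KO resting replicates 1 to 3 they were at 1523, 1561 and 1549 CPM, against 4406, 2496 and 1731 CPM in WT resting replicates 1 to 3. Csf1r, on that list, was at 0.638 to 2.05 CPM in stimulated and 162 to 816 CPM in resting libraries. The stimulated sums thus came almost wholly from other genes of the list. Markers of red pulp macrophages (7 genes, Hmox1 and Cd163 included) were spread more widely, at 339, 370 and 435 CPM in KO resting and 2531, 1161 and 555 CPM in WT resting libraries. They were at 34.6 to 36.8 CPM in KO stimulated and 20.4 to 26.5 CPM in WT stimulated libraries. Erythroid markers (10 genes) were high in both resting libraries numbered 1, with 1520, 204 and 131 CPM in KO resting and 1523, 462 and 58.6 CPM in WT resting libraries. B cell markers (10 genes) were at 866 to 903 CPM in KO stimulated and 454 to 694 CPM in WT stimulated libraries, above the myeloid sums there, and at 1536 to 1720 CPM in KO resting and 1183 to 2132 CPM in WT resting libraries. Markers of neutrophils (8 genes), dendritic cells (7), NK cells (6) and CD8 T cells (2) each summed to at most 36.4 CPM in stimulated and 177 CPM in resting libraries. In none of the 4 groups was a myeloid or red pulp macrophage marker at 0 in all 3 libraries. In bulk RNA, fewer cells of a type and less RNA per cell cannot be told apart.

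The condition of culture was also the table in which a library was deposited, and transcripts linked to sex differed with it. Xist, made by female cells, was at 940.6 to 1126 CPM in the 6 stimulated libraries and at 0.0496 to 0.0866 CPM in the 6 resting libraries. Ddx3y, on the Y chromosome, had 0 counts in each stimulated library and 143 to 167 CPM in the resting libraries. In every stimulation comparison below, antibody, sex-linked transcripts, table and the fall in RNA of other cells cannot be told apart.

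**Figure D1:**
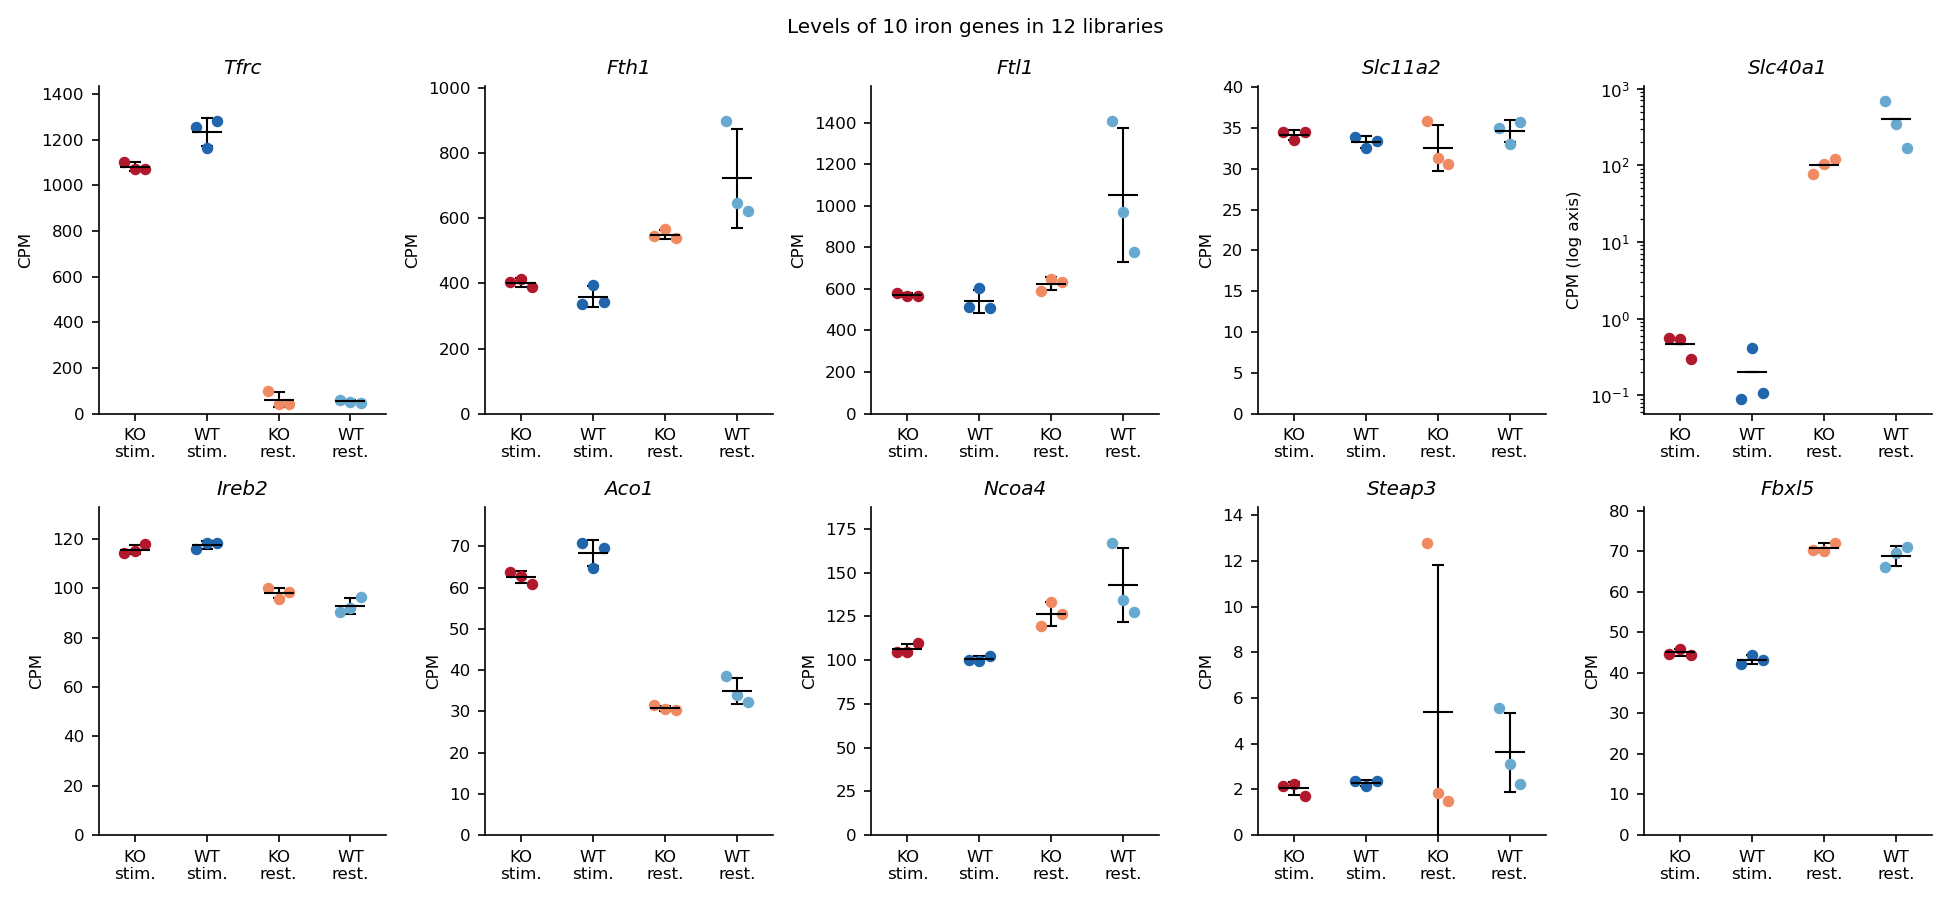
Level of each of the 10 iron genes in CPM (vertical axis, linear from 0 except Slc40a1, which is on a log axis) in KO stimulated, WT stimulated, KO resting and WT resting libraries. Points are libraries in the order of their replicate number, horizontal bars are means and error bars are SD (n = 3; mean only for Slc40a1); Tfrc and Aco1 are high in all 6 stimulated libraries, and Slc40a1, Fth1 and Ftl1 are highest in WT resting replicate 1.

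Stimulated libraries held far more Tfrc mRNA and more Aco1 mRNA than resting libraries of the same genotype, and less Slc40a1, Fth1, Ncoa4 and Fbxl5. In KO cells 7 of the 10 genes passed the test (edgeR quasi-likelihood F-test, adjusted p under 0.05 over all genes), 3 higher and 4 lower, and 82.9% of the 17460 genes tested did (39.6% higher, 43.2% lower). In WT cells 8 passed, 3 higher and 5 lower, against 84.1% of all genes (39.3% higher, 44.8% lower). With most genes called, the number of iron genes called is near the background, so sizes and directions are what the comparison offers. The median log2 fold change of the 10 genes was -0.19 in KO and -0.58 in WT cells, beside -0.11 and -0.14 over all genes tested. The groups of libraries did not overlap for 8 of the 10 genes in either genotype, as for 86.7% of genes in KO and 84.7% in WT cells. Scaling by library totals in place of TMM moved the median of all genes by -0.33 in KO and -0.34 in WT cells, and the higher share of calls fell to 37.8% with library totals, against 47.8% with TMM, in KO and to 37.2%, against 46.7%, in WT cells.

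Tfrc encodes the transferrin receptor. Its level was 1103, 1071 and 1072 CPM in KO stimulated replicates 1 to 3 and 97.4, 42.4 and 43.9 CPM in KO resting replicates 1 to 3. In WT cells it was 1256, 1163 and 1281 CPM in stimulated and 58.9, 52.5 and 46.8 CPM in resting libraries. Every stimulated library lay above every resting library, and KO resting replicate 1 was the high one of its group. The log2 fold change was 4.14 ± 0.31 (SE; 17.7-fold, adjusted p = 8.8e-07) in KO and 4.55 ± 0.32 (23.4-fold, adjusted p = 4.6e-07) in WT cells by edgeR. Without KO resting replicate 1 the KO value was 4.65.

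Aco1 encodes IRP1, which serves as cytosolic aconitase when it carries an iron-sulphur cluster and binds RNA when it does not. It was at 63.9, 62.9 and 61.0 CPM in KO stimulated against 31.4, 30.6 and 30.3 CPM in KO resting libraries, and at 70.9, 64.9 and 69.6 CPM in WT stimulated against 38.5, 34.1 and 32.2 CPM in WT resting libraries. All stimulated libraries lay above all resting libraries, with log2 fold changes of 1.02 ± 0.060 in KO (2.03-fold, adjusted p = 3.6e-09) and 0.97 ± 0.060 in WT cells (1.96-fold, adjusted p = 5.8e-09). Ireb2 encodes IRP2, which is controlled mainly by degradation of the protein. It was at 114 to 118 CPM in KO stimulated and 95.7 to 99.9 CPM in KO resting libraries, and at 116 to 118 CPM in WT stimulated and 90.3 to 96.4 CPM in WT resting libraries. Its log2 fold changes of 0.24 ± 0.037 in KO (adjusted p = 6.3e-05) and 0.34 ± 0.037 in WT cells (adjusted p = 2.1e-06) depended on the scaling: with library totals they were -0.090 (adjusted p = 0.033) and 0.0020 (adjusted p = 0.96).

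Fbxl5 encodes the iron-sensing subunit of the ubiquitin ligase that marks the iron regulatory proteins for degradation. It was at 44.7, 46.0 and 44.5 CPM in KO stimulated and 70.3, 70.2 and 72.2 CPM in KO resting libraries. In WT cells it was at 42.2, 44.5 and 43.1 CPM in stimulated and 66.1, 69.5 and 71.0 CPM in resting libraries. All stimulated libraries lay below all resting libraries. The log2 fold change was -0.65 ± 0.039 in KO (adjusted p = 4.1e-09) and -0.67 ± 0.039 in WT cells (adjusted p = 3.1e-09), and the genotypes' responses differed by 0.015 ± 0.055 (adjusted p = 0.92).

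Ferritin transcripts were lower in stimulated libraries, with larger estimates in WT than in KO libraries, a difference whose own test is given further on. Fth1, the heavy chain, which oxidises iron for storage, was at 405, 414 and 389 CPM in KO stimulated and 545, 567 and 540.5 CPM in KO resting libraries. In WT cells it was at 337, 397 and 344 CPM in stimulated and 900, 649 and 624 CPM in resting libraries. Stimulated libraries lay below resting libraries in both genotypes, by a log2 fold change of -0.45 ± 0.12 in KO (adjusted p = 0.0037) and -1.01 ± 0.12 in WT cells (adjusted p = 6.4e-06). Ftl1, the light chain, which helps form the mineral core, was at 579, 568 and 565 CPM in KO stimulated against 592, 649 and 636 CPM in KO resting libraries. WT stimulated libraries had 513, 605 and 506 CPM and WT resting libraries 1409, 972 and 776 CPM. WT resting replicate 1 was the high library for both chains. Ftl1 fell in WT cells (-0.96 ± 0.17, adjusted p = 0.00040) and measured -0.13 ± 0.17 in KO cells (adjusted p = 0.49), where it passed at 0.048 with library totals and at 0.0058 with the 6 KO libraries fitted alone.

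Ncoa4 carries ferritin to the lysosome, where its iron is released. It was at 105, 104 and 110 CPM in KO stimulated and 119, 133 and 126 CPM in KO resting libraries, and at 100.1, 99.7 and 102.6 CPM in WT stimulated and 167, 134 and 127 CPM in WT resting libraries. All stimulated libraries lay below all resting libraries of their genotype, with log2 fold changes of -0.25 ± 0.082 in KO (adjusted p = 0.014) and -0.50 ± 0.083 in WT cells (adjusted p = 9.3e-05). Without KO resting replicate 2 the KO call was lost (-0.21, adjusted p = 0.058).

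Slc40a1 encodes ferroportin, the iron exporter. It was at 0.562, 0.535 and 0.300 CPM (34, 37 and 20 counts) in KO stimulated libraries and at 76.7, 103.6 and 119 CPM in KO resting libraries. In WT cells it was at 0.0904, 0.413 and 0.106 CPM (6, 26 and 7 counts) in stimulated and at 691, 349 and 166 CPM in resting libraries. No stimulated library came near a resting library, and WT resting replicate 1 was the high one and WT stimulated replicate 2 the high one of its own group. The log2 fold change was -7.74 ± 0.70 in KO (adjusted p = 4.6e-06) and -10.96 ± 0.79 in WT cells (adjusted p = 8.0e-07). The WT value was -10.32 without WT resting replicate 1 and -11.97 without WT stimulated replicate 2. All 16 myeloid and all 7 red pulp macrophage markers also fell in both genotypes.

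Slc11a2 encodes the transporter DMT1, which moves iron out of the endosome. It was at 34.5, 33.5 and 34.5 CPM in KO stimulated and 35.9, 31.3 and 30.7 CPM in KO resting libraries, and at 32.5 to 33.9 CPM in WT stimulated and 33.1 to 35.8 CPM in WT resting libraries. The groups overlapped, with log2 fold changes of 0.067 ± 0.057 in KO (adjusted p = 0.29) and -0.058 ± 0.057 in WT cells (adjusted p = 0.36). With library totals they were -0.26 (adjusted p = 0.0031) and -0.40 (adjusted p = 0.00014), and without KO resting replicate 1 the KO value passed at 0.15 (adjusted p = 0.013). Steap3 encodes the endosomal ferrireductase, best known in developing red cells. It was at 2.16, 2.24 and 1.71 CPM in KO stimulated and 12.8, 1.82 and 1.51 CPM in KO resting libraries, and at 2.35, 2.14 and 2.37 CPM in WT stimulated and 5.56, 3.10 and 2.21 CPM in WT resting libraries. Both resting libraries numbered 1 stood above all others, and no test passed, at -1.40 ± 0.75 in KO (adjusted p = 0.11) and -0.66 ± 0.74 in WT cells (adjusted p = 0.42). The KO value turned to 0.30 without KO resting replicate 1, and it passed without KO resting replicate 2 (-1.81, adjusted p = 0.042) or 3 (-1.84, adjusted p = 0.031). The WT value was -0.21 without WT resting replicate 1 and passed without KO resting replicate 1 (-0.66, adjusted p = 0.042).

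**Figure D2:**
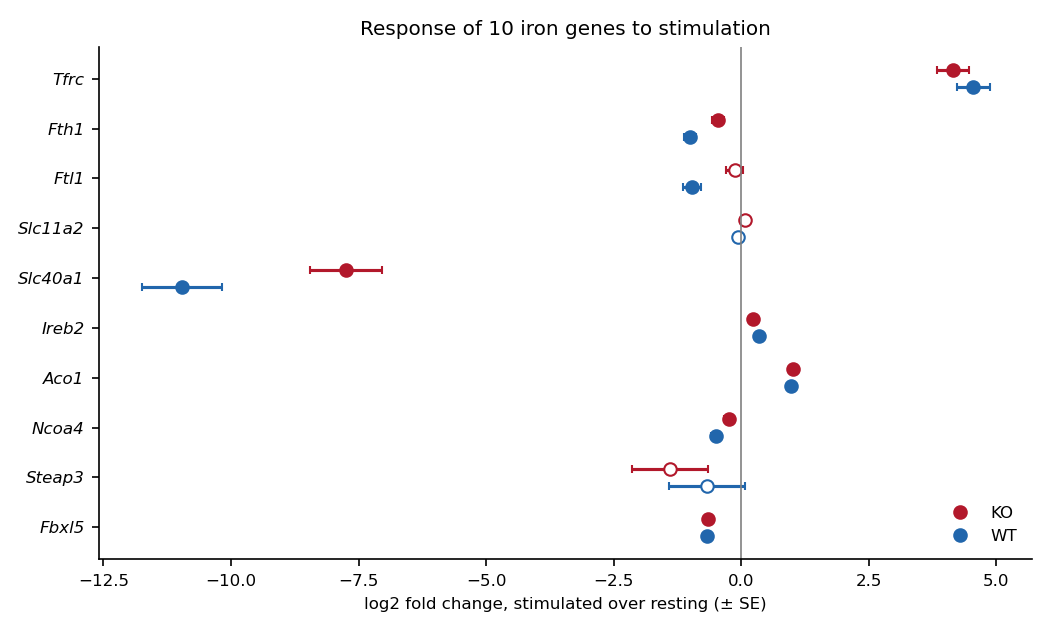
Log2 fold change of stimulated over resting cells (horizontal axis) for the 10 iron genes, in KO (red, upper point) and WT (blue, lower point) cells, with SE. Filled points have an adjusted p under 0.05 (edgeR, 12 libraries); Tfrc at 4.14 and 4.55 and Slc40a1 at -7.74 and -10.96 lie at the ends, and the small rise of Ireb2 (0.24 and 0.34) is at -0.090 and 0.0020 when libraries are scaled by their totals.

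The ratio of storage to uptake transcripts was lower in every stimulated library than in any resting library. Summed Fth1 and Ftl1 counts were 0.892, 0.917 and 0.890 times those of Tfrc in KO stimulated libraries and 11.7, 28.7 and 26.8 times in KO resting libraries. In WT cells the ratio was 0.676, 0.861 and 0.664 in stimulated and 39.2, 30.9 and 29.9 in resting libraries. The lowest resting ratio was that of KO resting replicate 1 and the highest that of WT resting replicate 1. Per kilobase of the longest principal transcript, the mean level of Ftl1 was 590 CPM in KO stimulated, 559 in WT stimulated, 646 in KO resting and 1087 in WT resting libraries, above the other 9 genes in all 4 groups. Tfrc had 221, 252, 12.5 and 10.8 CPM per kilobase in the same order of groups, and Steap3 0.395, 0.443, 1.04 and 0.702. Fth1 has a second, shorter principal transcript, so its level per length, 269.5, 240.3, 369 and 485 CPM per kilobase on the longer one, depends on that choice.

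None of the 10 genes passed the test between KO and WT resting cells, though Slc40a1, Fth1, Ftl1 and Aco1 were lower in all 3 KO libraries. By edgeR 6 of the 16637 genes tested passed (0.0361%; 0.018% higher and 0.018% lower in KO cells). At an unadjusted p under 0.05 the same 4 genes were lower and none was higher, beside 13.7% of all genes (5.61% higher, 8.11% lower). DESeq2 called 1, Slc40a1, and 3.69% of all genes. Groups did not overlap for these 4 of the 10 genes, and for 19.8% of all genes. The median log2 fold change of the 10 genes was -0.14, and 0.0088 over all genes.

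The Slc40a1 levels given above, 76.7 to 119 CPM in KO resting and 166 to 691 CPM in WT resting libraries, gave -2.03 ± 0.57 (adjusted p = 0.31; DESeq2 adjusted p = 0.022). Ftl1 measured -0.76 ± 0.22 (adjusted p = 0.31), Fth1 -0.41 ± 0.15 (adjusted p = 0.33) and Aco1 -0.19 ± 0.076 (adjusted p = 0.35). All 7 red pulp macrophage markers and all 16 myeloid markers had negative fold changes as well, with medians of -1.94 and -1.13, and 7 and 10 of them at an unadjusted p under 0.05, none passing adjustment. With the mean log2 CPM of the myeloid markers as a covariate, Slc40a1 was at -0.38, Ftl1 at -0.10, Fth1 at 0.0069 and Aco1 at 0.013. This covariate differs between the genotypes, so the fit cannot tell the 2 apart. Without both resting libraries numbered 1, an alternative chosen after seeing the data, the values were -1.22 for Slc40a1 (adjusted p = 0.59), -0.45 for Ftl1 and -0.21 for Fth1.

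Among the other members, Ncoa4 measured -0.19 ± 0.11 (adjusted p = 0.49), Slc11a2 -0.096 ± 0.070 (adjusted p = 0.57), Ireb2 0.069 ± 0.041 (adjusted p = 0.49) and Fbxl5 0.033 ± 0.040 (adjusted p = 0.76). Without WT resting replicate 1 Ncoa4 was at -0.054, Aco1 at -0.11, Fth1 at -0.21, Ftl1 at -0.49 and Slc40a1 at -1.38, and with any other library left out all 5 stayed below 0. Tfrc measured 0.21 ± 0.38 (adjusted p = 0.85) and Steap3 0.56 ± 0.97 (adjusted p = 0.84), and both rested on KO resting replicate 1: without it they were at -0.30 and -1.14. Summed erythroid markers were high in that library, at 1520 CPM, but were as high in WT resting replicate 1, at 1523 CPM. There Tfrc was at 58.9 CPM and Steap3 at 5.56 CPM. The marker Slc4a1, the anion exchanger of red cells, set the 2 libraries further apart than the sum did. It was at 88.8, 0.565 and 0.347 CPM in KO resting and 35.3, 17.8 and 2.99 CPM in WT resting libraries. The part of these transcripts in the Tfrc and Steap3 values was not tested.

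The ratios of Slc40a1 to Hmox1 and to Spic, both markers of red pulp macrophages, varied less than the genes themselves. Over the 6 resting libraries Slc40a1 spanned 9.02-fold, Hmox1, which breaks down haem, 9.98-fold, and Spic, the transcription factor that red pulp macrophages need, 7.96-fold. The ratio of Slc40a1 to Hmox1 counts was 1.07, 1.01 and 1.06 in KO resting and 0.966, 0.996 and 1.02 in WT resting libraries, and that to Spic ran from 5.24 to 6.80. The ratio to Cd163, another marker of these macrophages, spread 1.63-fold, up to 9.77, and that to Hmox1 1.11-fold. That to Csf1r, a growth factor receptor found on many myeloid cells, spread 1.83-fold, with 0.474 to 0.619 in KO resting and 0.826 to 0.869 in WT resting libraries. The ratio to the summed myeloid markers spread 3.12-fold, with 0.0503 to 0.0769 in KO resting and 0.0962 to 0.157 in WT resting libraries. Neither of these last ratios overlapped between the genotypes. In stimulated libraries the Hmox1 ratio was 0.0268 to 0.0452 in KO and 0.0141 to 0.0401 in WT cells, with Hmox1 at 11.2 to 13.7 CPM in KO and 6.33 to 10.3 CPM in WT libraries. Hmox1 and Spic are themselves among the marker genes, and what these ratios owe to macrophage RNA was not tested.

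**Figure D3:**
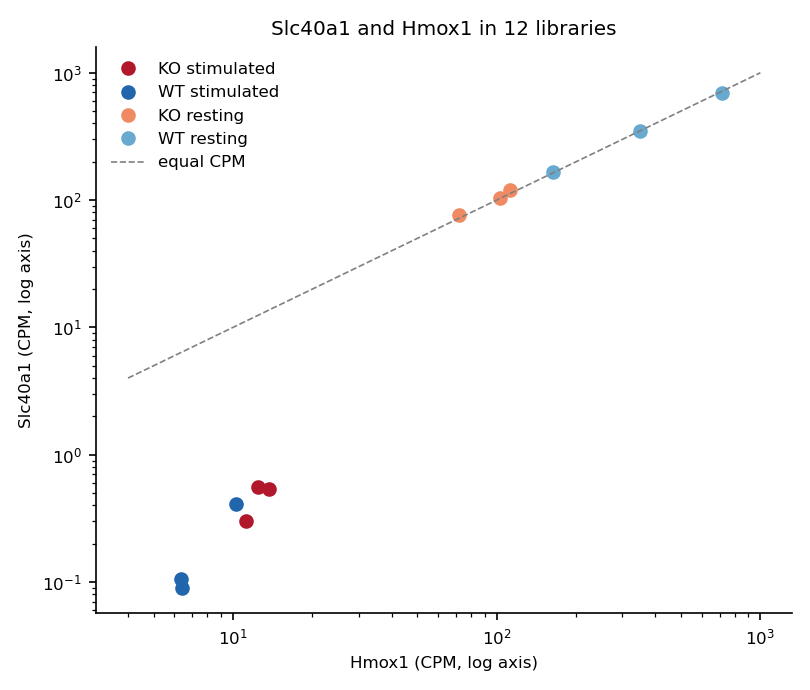
Slc40a1 (vertical, CPM, log axis) against Hmox1 (horizontal, CPM, log axis) in the 12 libraries; the dashed line marks equal CPM. The 6 resting libraries lie along the line, with count ratios from 0.966 to 1.07, and the 6 stimulated libraries lie far below it, with ratios from 0.0141 to 0.0452.

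The 2 ferritin chains did not keep 1 ratio in the resting libraries. Ftl1 counts were 1.14 ± 0.0458 times those of Fth1 in KO resting and 1.44 ± 0.170 times in WT resting libraries (SD, n = 3 each), without overlap of the groups. In stimulated libraries the ratio was 1.37 to 1.45 in KO and 1.47 to 1.52 in WT cells. No test was run on these ratios, and named pseudogenes of the chains held at most 0.0244% of Fth1 and 0.905% of Ftl1 counts.

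Between KO and WT stimulated cells, Tfrc passed, 11.8% lower in KO cells, and the other 9 genes did not by edgeR without a replicate block. By edgeR 719 of the 15090 genes tested passed (4.76%), 3.37% higher and 1.4% lower in KO cells, and 1 of the 10 iron genes did. The groups of libraries did not overlap for Tfrc, Aco1 and Ncoa4, 3 of the 10, and for 28.0% of all genes. The Tfrc levels of 1071 to 1103 CPM in KO and 1163 to 1281 CPM in WT stimulated libraries gave a log2 fold change of -0.18 ± 0.039 (adjusted p = 0.032). The call was lost in several other settings: the value was -0.19 with all 12 libraries in 1 fit (adjusted p = 0.87), -0.16 with library totals (adjusted p = 0.053) and -0.087 with the myeloid covariate (adjusted p = 0.22). It was also lost without any 1 of the 3 KO libraries, WT replicate 1 or WT replicate 3 (-0.16 to -0.19, adjusted p of 0.069 to 0.14).

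Aco1 measured -0.12 ± 0.043 (adjusted p = 0.14), Fth1 0.17 ± 0.057 (adjusted p = 0.13), Ncoa4 0.084 ± 0.032 (adjusted p = 0.18) and Slc40a1 1.21 ± 0.53 (adjusted p = 0.24). These 4 and Tfrc were the genes at an unadjusted p under 0.05, 3 higher and 2 lower, as were 20.6% of all genes (11.7% higher, 8.87% lower). Fth1 passed with the replicate block (0.18, adjusted p = 0.015), where 2 genes were called, and by DESeq2 (0.17, adjusted p = 0.027), which called 2 of the 10 and 7.97% of all genes. The remaining 5 lay between -0.16 for Steap3 (adjusted p = 0.59) and 0.085 for Ftl1 (adjusted p = 0.49). WT stimulated replicate 2, the WT library highest in myeloid markers at 224 CPM, was also the WT library highest in Slc40a1, Fth1 and Ftl1. Every other marker list except that of CD4 T cells was highest there too. Replicates 1 to 3 had erythroid sums of 20.8, 80.2 and 22.4 CPM and B cell sums of 454, 694 and 603 CPM. Without WT stimulated replicate 2, 5 genes passed, with Fth1 at 0.25, Ftl1 at 0.17 and Slc40a1 at 2.22 higher, and Aco1 at -0.16 and Tfrc at -0.22 lower. Of the 16 myeloid markers 14 had higher values in KO stimulated cells and 7 passed; of the 5 red pulp macrophage markers tested all were higher and 1 passed. B cell markers were higher in 10 of 10, without overlap of the groups for any, and 1 passed; NK cell markers were higher in 6 of 6, none passing by edgeR and 1 at an unadjusted p under 0.05, and CD8 T cell markers in 2 of 2, 1 passing. The part of RNA of these cells in the KO against WT values was not tested. With the myeloid covariate Fth1 was at -0.0065, Ftl1 at -0.083 and Slc40a1 at -0.29.

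**Figure D4:**
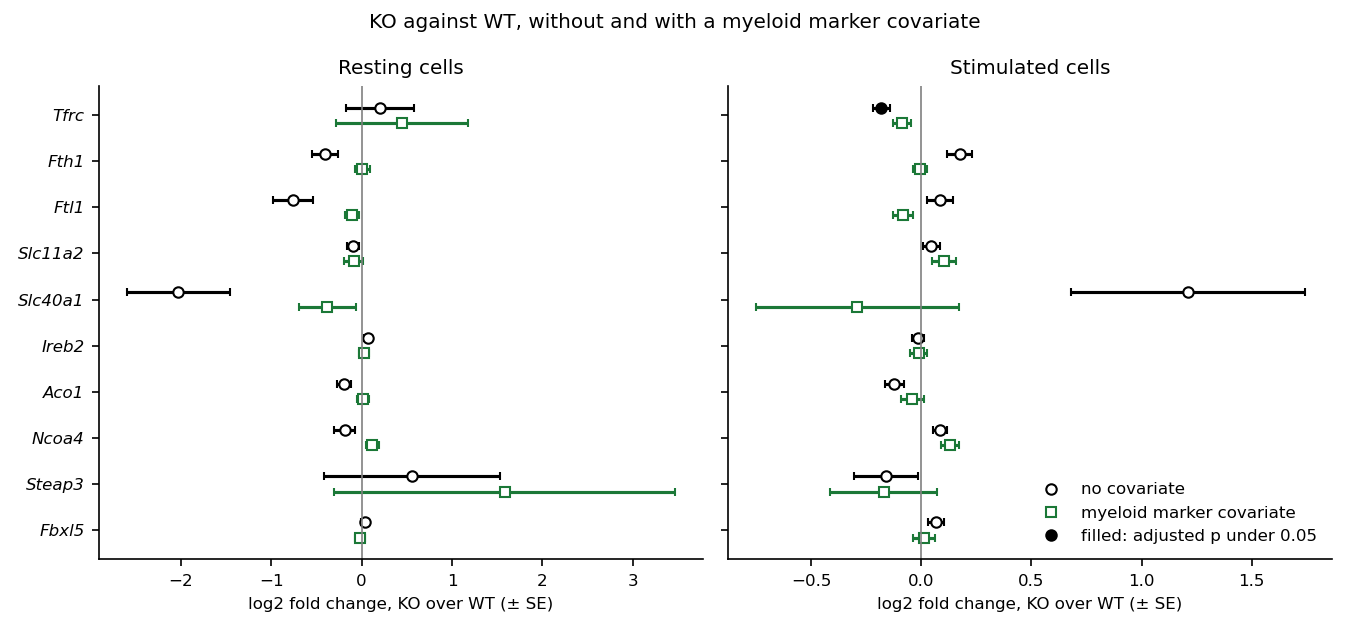
Log2 fold change of KO over WT with SE (horizontal axis) for the 10 iron genes in resting (left) and stimulated (right) cells, without a covariate (black circles, upper) and with the myeloid markers as a covariate (green squares, lower); the 2 axes differ in range. The filled point, Tfrc in stimulated cells at -0.18, has an adjusted p under 0.05; Slc40a1 in resting cells is at -2.03 without and -0.38 with the covariate.

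The responses of the genotypes to stimulation did not differ past the threshold for any of the 10 genes, while 121 of 17460 genes passed (0.693%). At an unadjusted p under 0.05 were 4 genes, all with a positive difference of KO minus WT responses, beside 15.9% of all genes (9.58% positive, 6.3% negative). Ftl1 measured 0.83 ± 0.24 (adjusted p = 0.15), Fth1 0.56 ± 0.17 (adjusted p = 0.14), Slc40a1 3.22 ± 1.41 (adjusted p = 0.31) and Ncoa4 0.25 ± 0.12 (adjusted p = 0.31). DESeq2 called the first 3, at adjusted p of 0.046, 0.023 and 0.021, and 7.03% of all genes, and edgeR called Fth1 and Ftl1 without WT resting replicate 3 (0.66 and 1.01). With the myeloid covariate, added after seeing the data, Ftl1 was at -0.031, Fth1 at -0.034, Slc40a1 at 0.55 and Ncoa4 at -0.043. Tfrc measured -0.40 ± 0.39 (adjusted p = 0.66) and was at 0.10 without KO resting replicate 1. Since both comparisons of genotype enter this difference, it adds no separate evidence to them.

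Other genes of iron handling were taken from lists by role, 67 in all. In stimulated against resting KO cells 36 of the 62 tested rose and 17 fell, and in WT cells 37 rose and 19 fell, with medians of 0.56 and 0.53. Genes that build iron-sulphur clusters, the cofactors of aconitase and the respiratory chain, mostly rose: 20 of 24 rose and 1 fell in KO cells, and 21 rose and 2 fell in WT cells, where of all genes 39.6% rose and 43.2% fell in KO and 39.3% rose and 44.8% fell in WT cells. Hspa9, the mitochondrial chaperone that passes clusters on, rose by 2.73 ± 0.072 in KO and 2.83 ± 0.072 in WT cells (log2, adjusted p = 1.6e-12 and 1.0e-12). Cisd1, a cluster protein of the outer mitochondrial membrane, rose by 2.40 ± 0.11 in KO and 2.32 ± 0.11 in WT cells.

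Of 13 genes of uptake and import, 3 rose and 7 fell in KO cells and 3 rose and 8 fell in WT cells. The shares over all genes were 39.6% and 43.2% in KO and 39.3% and 44.8% in WT cells. Slc39a8, an importer of zinc, manganese and iron, rose by 1.99 ± 0.25 in KO and 2.11 ± 0.25 in WT cells. Among those that fell was Cd163, the receptor for haemoglobin bound to haptoglobin. It measured -9.19 ± 0.89 in KO and -10.01 ± 0.80 in WT cells, with -9.29 in WT cells without WT resting replicate 1. With 1, 1 and 2 counts in KO stimulated and 1, 4 and 3 counts in WT stimulated libraries, the size of its fall is loose. Lrp1, which takes up haem bound to haemopexin among many ligands, measured -3.24 ± 0.43 in KO and -5.60 ± 0.48 in WT cells. Hfe, which binds the transferrin receptor, measured -5.19 ± 0.43 in KO and -6.29 ± 0.44 in WT cells.

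Of 13 genes of haem synthesis and breakdown, 6 rose and 5 fell in each genotype. Over all genes 39.6% rose and 43.2% fell in KO and 39.3% rose and 44.8% fell in WT cells. Alad, an enzyme of haem synthesis, rose by 1.64 ± 0.27 in KO cells. Its mean level in WT cells was 41.2 CPM in stimulated and 12.2 CPM in resting libraries. Hmox1 measured -5.74 ± 0.57 in WT cells, or -5.07 without WT resting replicate 1. Its mean level in KO cells was 12.4 CPM in stimulated and 95.6 CPM in resting libraries. Alas2, the erythroid enzyme that opens haem synthesis and that carries an iron-responsive element, measured -5.26 ± 1.55 in KO and -4.92 ± 1.50 in WT cells. Its size depended on the libraries high in erythroid RNA, at -3.33 in KO without KO resting replicate 1 and at -3.52 in WT without WT resting replicate 1. The WT call was then lost (edgeR adjusted p = 0.055). In KO cells the call held with any 1 of the 12 libraries left out (edgeR adjusted p at most 0.045). The WT value was -5.98 without WT stimulated replicate 2.

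Of 8 chaperones and genes of storage and export, 5 rose and 2 fell in both genotypes. Of 4 further mRNAs known to carry an iron-responsive element 2 rose and 2 fell in both. Epas1, a hypoxia-inducible factor, measured -3.07 ± 0.17 in KO cells and Cdc42bpa, a kinase of the cytoskeleton, 2.06 ± 0.35 in WT cells. Both moved the same way in the other genotype. Mean Epas1 was 3.45 CPM in WT stimulated and 24.7 CPM in WT resting libraries. Mean Cdc42bpa was 8.15 CPM in KO stimulated and 2.78 CPM in KO resting libraries. Genes with the hairpin pattern moved in both directions. Of 29 tested with a match in the 5′ UTR, the 3 above included, 16 rose and 7 fell in KO cells and 15 rose and 9 fell in WT cells. Of 106 tested with a match in the 3′ UTR, Tfrc included, 51 rose and 45 fell in KO cells and 50 rose and 43 fell in WT cells. Of all genes 39.6% rose and 43.2% fell in KO and 39.3% rose and 44.8% fell in WT cells.

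**Figure D5:**
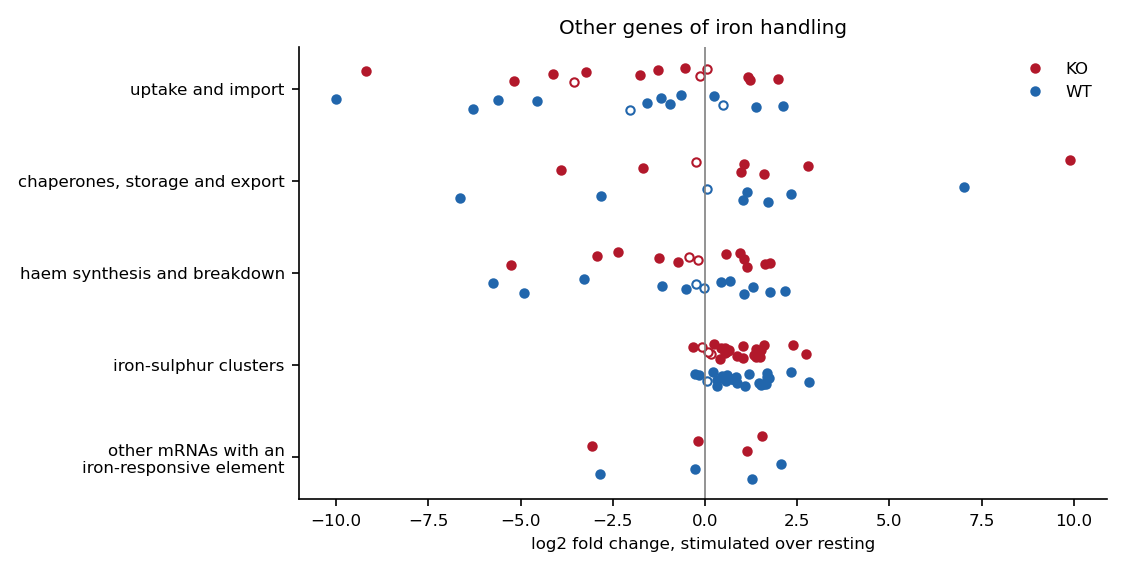
Log2 fold change of stimulated over resting cells (horizontal axis) for the other genes of iron handling, 1 point per gene, by role (rows), in KO (red, upper) and WT (blue, lower) cells. Filled points have an adjusted p under 0.05; iron-sulphur cluster genes lie mostly to the right, with 20 of 24 higher in KO and 21 of 24 in WT cells, while uptake and import genes spread to both sides.

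Between the genotypes these other genes gave 1 call. In resting cells 0 of 60 tested passed by edgeR, beside 0.0361% of all genes. At an unadjusted p under 0.05, 3 were higher and 6 lower, beside 5.61% and 8.11% of all genes. Among 59 tested in stimulated cells 1 passed by edgeR, beside 4.76% of all genes. This was Lrp1, at 5.35 ± 0.39 CPM in KO and 2.80 ± 0.19 CPM in WT libraries (SD, n = 3 each). Its log2 fold change was 0.94 ± 0.10 (adjusted p = 0.0023), and the call was lost in the fit of all 12 libraries (adjusted p = 0.49). At an unadjusted p under 0.05, 2 of the 59 were higher and 13 lower in KO cells, beside 11.7% and 8.87% of all genes. Of 24 iron-sulphur cluster genes 20 measured below 0 in KO stimulated cells, none passing, with a median of -0.048 beside -0.00016 over all genes. In the difference of responses 0 of 62 passed by edgeR, beside 0.693% of all genes. At an unadjusted p under 0.05, 4 were higher and 5 lower, beside 9.58% and 6.3% of all genes.

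Genes whose pattern was most like that of Tfrc and of Slc40a1 were sought among 9173 genes with a mean of at least 10 CPM. Likeness was the root mean square difference of log2(CPM + 0.1), centred per gene, over the 12 libraries, which all share the step between conditions. For Tfrc the closest were Fancd2, a DNA repair gene (0.0527), Zwilch, a kinetochore gene (0.0815), and Kif20a, a mitotic kinesin (0.0997). Fancd2 was at 68.2 ± 2.50 CPM in KO stimulated, 74.4 ± 4.95 in WT stimulated, 3.62 ± 2.07 in KO resting and 3.12 ± 0.284 in WT resting libraries (SD, n = 3 each), and its highest resting library, at 6.01 CPM, was again KO resting replicate 1. For Slc40a1 the closest were Itgad, an integrin chain (0.491), Mrc1, the mannose receptor (0.537), and Adgre4, an adhesion receptor (0.617). Mrc1 was at 0.0517 ± 0.0199 CPM in KO stimulated, 0.0831 ± 0.0671 in WT stimulated, 53.1 ± 7.54 in KO resting and 180 ± 135 in WT resting libraries.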

How the data were processed

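The authors deposited expected counts from RSEM, which are partly fractional, with stimulated and resting libraries in separate tables. Libraries came from polyadenylated RNA by a stranded kit, per the labels' protocols; the sources used here do not give the strand setting of the counting, so overlapping genes may share reads. Named in the submitters' processing notes are STAR 2.7.0f, RSEM 1.3.1, cutadapt 1.18, bcl2fastq 2.20 and mm10, without settings. Counts were rounded, filtered (filterByExpr, at least 10 counts and a total of 15), normalized by TMM and tested by edgeR 4.0.16 (robust quasi-likelihood F-test, R 4.3.3) with Benjamini-Hochberg adjustment over all genes at a threshold of 0.05. Genotypes were compared in fits of 6 libraries, and stimulation and the difference of responses in 1 fit of 12 libraries, without covariates. DESeq2 1.42.0 was an alternative. The fits were tested on simulated counts. Replicates of a group differed by more than sampling noise (chi-square per degree of freedom 3.79 to 132), so each library was counted. Gene names, positions and transcripts came from GENCODE M21, whose identifiers matched all 55450 genes. Hfe2, Fdx1l and Narfl were used for 3 listed genes under newer names. The members and lists were chosen with earlier results of these data known, and support nothing by their choice. Of the other iron genes, those named passed the test with the largest changes and a mean of at least 3 CPM. Slc4a1, Spic, Csf1r, Xist and Ddx3y fall outside that rule and were named after their values were seen. A gene that this rule names is not reported here. Protein sequences were not used here.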

Additional observations from a re-analysis of the deposited data

How the results depend on the processing

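The count of iron genes called was 7 in KO and 8 in WT stimulated against resting cells, 7 to 8 and 8 to 9 with 1 library left out, and within 1.5 times in every other setting run. In resting KO against WT it was 0 (DESeq2 1; 0 with any 1 library left out). In stimulated KO against WT it was 1, but 2 by DESeq2, 0 with 12 libraries in 1 fit, 0 with library totals, 0 with the myeloid covariate and 0 to 5 with 1 library left out. For the difference of responses it was 0, but 3 by DESeq2 and 0 to 2 with 1 library left out. Over all genes, resting KO against WT gave 6 calls, but 40 without a count filter, 518 by DESeq2 (25.3% higher, against 3 of 6), 161 in the 12-library fit, 93 with the covariate, 30 without both libraries numbered 1 and 2 to 18 with 1 library left out. Stimulated KO against WT gave 719, but 219 in the 12-library fit, 1133 by DESeq2, 1287 with the covariate and 128 to 1408 with 1 library left out; 70.7% were higher, but 82.4% with library totals, 87.2% in the 12-library fit and 51.5% with the covariate. The difference of responses gave 121, but 204 at a filter of 1 CPM, 1012 by DESeq2, 4 with the covariate, 209 without both libraries numbered 1 and 27 to 1646 with 1 library left out; 80.2% were higher, but 69.6% with DESeq2's size factors and 60.0% by its own test. Signs turned as follows, and the cause was not tested. With the covariate: in resting cells Fth1 0.0069, Aco1 0.013, Ncoa4 0.12 and Fbxl5 -0.015; in stimulated cells Fth1 -0.0065, Ftl1 -0.083 and Slc40a1 -0.29; in the difference Fth1 -0.034, Ftl1 -0.031, Aco1 -0.093 and Ncoa4 -0.043. Without both resting libraries numbered 1: Tfrc -0.21 and Steap3 -0.68 in resting cells, Steap3 0.31 for stimulation in KO, Tfrc 0.026 and Steap3 0.52 in the difference. With library totals: Ireb2 0.0055 in stimulated KO against WT, and Slc11a2 -0.26 and Ireb2 -0.090 for stimulation in KO. In the difference Fbxl5 was -0.0078 by DESeq2 and -0.0079 with its size factors. With 1 library left out, resting Tfrc ran from -0.30 to 0.42 and Steap3 from -1.14 to 1.02, Steap3 for stimulation in KO from -1.84 to 0.30, and in the difference Tfrc from -0.61 to 0.10, Steap3 from -1.18 to 0.96, Aco1 from -0.020 to 0.11 and Fbxl5 from -0.0054 to 0.047. Pkm in resting cells lost its call without KO resting replicate 2 (adjusted p = 0.076) or 3 (adjusted p = 0.097). Slc40a1 has no stimulated KO against WT value at the 1 CPM filter. Whether the replicate numbers pair KO with WT libraries of the same condition was not settled. Across conditions they cannot stand for the same animal, given the Xist and Ddx3y levels. Same-numbered KO and WT libraries correlated at 0.27, -0.085 and 0.21 in resting and -0.014, 0.0057 and 0.0073 in stimulated cells. Differently numbered KO and WT resting libraries correlated at -0.32 to 0.19. With the replicate block the calls were 2 in stimulated KO against WT (Fth1 added, adjusted p = 0.015) and unchanged in number elsewhere, with resting Steap3 at -0.025. With 3 libraries a group, counts as low as those of Slc40a1 in stimulated cells give loose values.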
